A study of Sus scrofa with 17 samples.

Results

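The integrated stress response genes described here were ATF4, ATF3, CHAC1, SESN2, DDIT4, TRIB3, ASNS, DDIT3 and PSAT1, read in the longissimus dorsi muscle of weaned piglets. They are 9 of the 31908 genes in the count table, and all 9 passed the filter on low counts that left 14203 genes for testing. The genes were chosen by their membership of a known pathway and selected on their CPM in the 3 diets and their covariation between the libraries, which had been seen in these counts. Their levels, fold changes and covariation are therefore given as a description, with no p-value for a single gene of the 9, and the counts of calls among them are not evidence of a difference.

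The muscle was sampled from male Large White × Duroc piglets, aged 28 days at the start, after 5 days of adaptation and 2 weeks on their diet. Control piglets (6 libraries) were fed wheat, maize and soybean meal. UL piglets (6 libraries) had 7% of that diet replaced by the green seaweed Ulva lactuca, and ULU piglets (5 libraries) received the UL diet with 0.01% ulvan lyase, an enzyme that cleaves the cell wall polysaccharide ulvan. Each library came from a separate piglet kept in an individual cage, all piglets were offered matched amounts of feed, and the study describes the muscle as longissimus lumborum where the sample labels say longissimus dorsi. The libraries held between 16137365 and 26546810 reads counted in genes. No library was labelled with a batch.

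The integrated stress response begins when kinases that sense amino acid shortage, unfolded proteins, haem shortage or viral RNA phosphorylate the initiation factor eIF2. Bulk translation then slows, while the mRNA of the transcription factor ATF4 is translated more, so that ATF4 can act without a change in its own mRNA. ATF4 and the factors it induces switch on genes of amino acid synthesis, amino acid uptake, tRNA charging and glutathione turnover, and in skeletal muscle the pathway is best known for its response to mitochondrial and nutritional stress and for the release of the hormone FGF21.

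Among the 9 genes, ATF3 had the lowest log2(fold change) in both comparisons with control. ATF3 is a basic leucine zipper factor induced by ATF4 and by many acute stimuli, encoded on chromosome 9 from 130770428 to 130787462 of the assembly Sscrofa11.1 (ENSSSCG00000015595). Its level, in CPM (counts scaled to a common library depth, here with TMM factors), had a lowest, median and highest value of 19.3, 120 and 227 in control and of 7.35, 21.3 and 62.8 in UL. The ULU piglets 40 to 44 had 7.47, 19.4, 4.25, 13.8 and 8.56 CPM. Only the control piglet with the lowest level came within the ULU range, where ULU piglet 41 at 19.4 CPM was just above control piglet 25 at 19.3 CPM. The log2(fold change) was -2.17 (SE 0.54) in UL vs control, -3.46 (SE 0.62) in ULU vs control and -1.29 (SE 0.57) in ULU vs UL. The first and the second of these comparisons share the 6 control piglets.

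The other basic leucine zipper factors differed from ATF3 in level and in pattern. ATF4 (chromosome 5 from 8738880 to 8745225, ENSSSCG00000000084) had the highest level per length of the 9 genes and averaged 622 ± 145 CPM (SD, n = 6) in control, 586 ± 147 (n = 6) in UL and 618 ± 171 (n = 5) in ULU. The ATF4 ranges lay over each other, from 458 to 879 CPM in control, 408 to 820 in UL and 418 to 848 in ULU. Its log2(fold change) was -0.09 (SE 0.19) in UL vs control, and for ULU vs control it was -0.01 (SE 0.20). The row taken for ATF4 was named by its position. Of its 5377 exon bases, 24.0% lay inside the span of ATF4 in RefSeq and the rest extended beyond it, so that its counts may not all be of ATF4. DDIT3, also called CHOP, is a factor linked to cell death under lasting stress, and only 98 of the 891 exon bases of its gene (chromosome 5 from 22785441 to 22789829, ENSSSCG00000050998) were not shared with MARS1 or with a gene model without a name. By the default of featureCounts, reads on shared bases were not counted, which left DDIT3 between 6 and 39 reads in a library. DDIT3 stood at 1.28 ± 0.587 CPM in control (SD, n = 6), 0.673 ± 0.238 in UL (n = 6) and 0.573 ± 0.345 in ULU (n = 5). Its log2(fold change) was -0.91 (SE 0.37) in UL vs control, and for ULU vs control it was -1.17 (SE 0.40), with overlapping ranges in all 3 diets.

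CHAC1 is the enzyme that degrades glutathione in the cytosol and one of the most inducible targets of ATF4 (chromosome 1 from 130360513 to 130363308, ENSSSCG00000038521). It had a lowest, median and highest level of 20.2, 24 and 123 CPM in control and of 4.16, 9.91 and 22.8 CPM in UL. The ULU piglets 40 to 44 had 5.77, 20.9, 5.55, 3.6 and 10.4 CPM. Of the 6 control piglets, 4 lay between 20.2 and 24.9 CPM and the other two, 23 and 26, stood at 123 and 90.5 CPM. The log2(fold change) of CHAC1 was -2.07 (SE 0.55) in UL vs control, and for ULU vs control it was -2.46 (SE 0.60). Without control piglets 23 and 26, an alternative added after the data were seen, these values were -0.90 and -1.28.

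**Figure D1:**
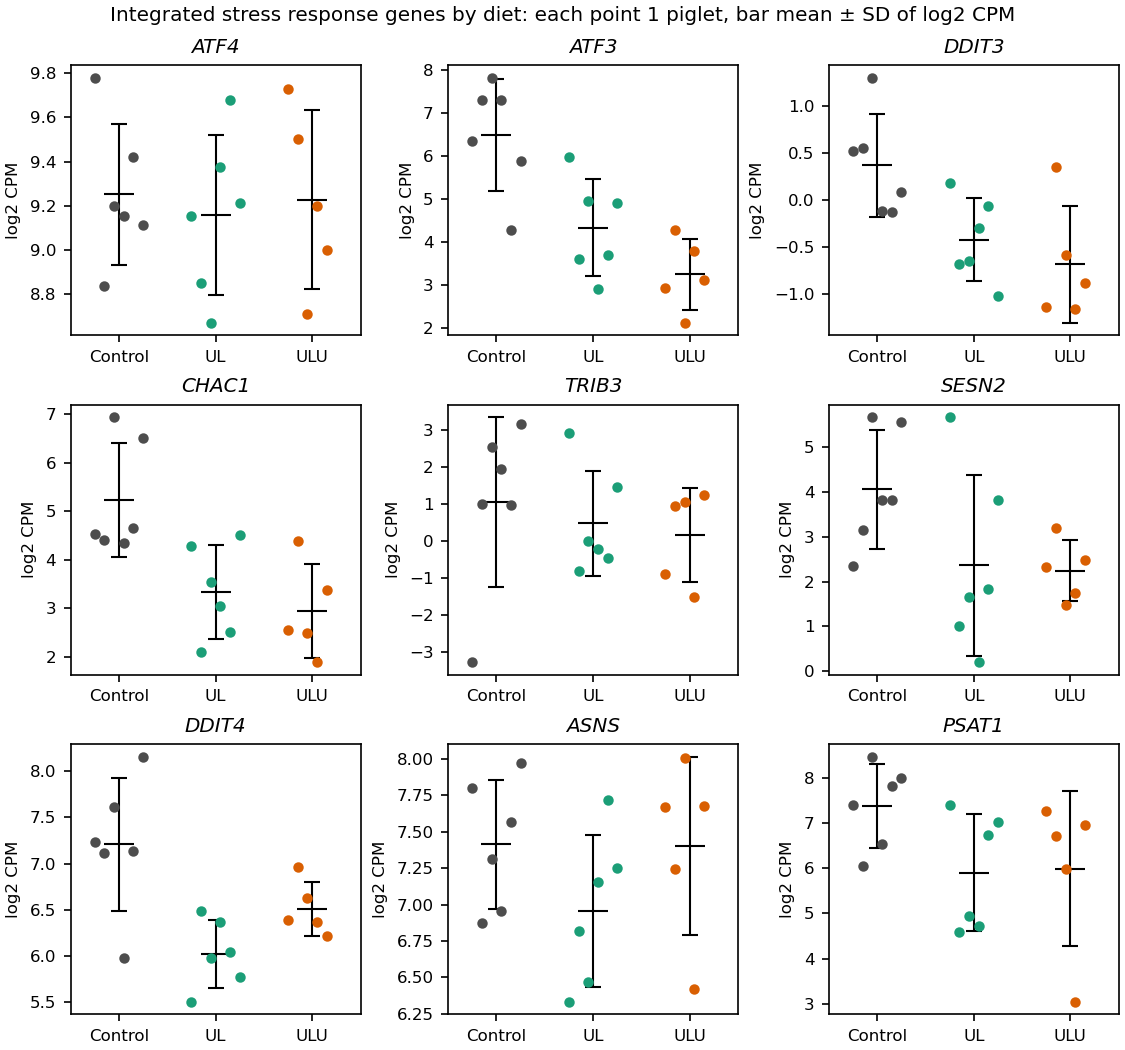
Level of each gene in log2 CPM (vertical axis, a separate scale in each panel) by diet, where each point is 1 piglet and the bar and whiskers are the mean ± SD of the diet. For ATF3, 4 of the 5 ULU points lie below the control range, the ATF4 points of the diets lie over each other, and control piglet 21 is the low point for TRIB3.

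TRIB3, SESN2 and DDIT4 encode proteins that restrain growth signalling. TRIB3 is a pseudokinase that binds ATF4 and AKT and feeds back on the response (chromosome 17 from 34807534 to 34816451, ENSSSCG00000039862). It was the least abundant of the genes with usable counts, at 3.67 ± 3.19 CPM in control (SD, n = 6), 2.13 ± 2.69 in UL (n = 6) and 1.34 ± 0.924 in ULU (n = 5). Control piglet 21 had 0 TRIB3 reads, which allows up to 0.191 CPM at its depth, while control piglet 26 had 8.84 CPM, so that the control group spanned the whole range of the study.

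SESN2 binds leucine and holds back mTORC1 when leucine is scarce (chromosome 6 from 85324228 to 85348044, ENSSSCG00000029438). Its lowest, median and highest levels were 4.97, 14 and 50.9 CPM in control and 1.04, 3.25 and 50.7 CPM in UL. The ULU piglets 40 to 44 had 4.89, 9.1, 2.69, 3.25 and 5.5 CPM. The highest SESN2 levels were those of control 23 and 26 and UL 27. The log2(fold change) in UL vs control was -0.91 (SE 0.75), and it was -2.33 without UL piglet 27 and 0.23 without control piglets 23 and 26. For ULU vs control the SESN2 value was -2.20 (SE 0.84), and -1.04 without control piglets 23 and 26. In UL vs control TRIB3 stood at -0.79 (SE 0.77) with all libraries, -1.78 without UL piglet 27 and 0.17 without control piglets 23 and 26. Its value for ULU vs control was -1.46 (SE 0.84), and -0.49 without control piglets 23 and 26. In ULU vs UL, SESN2 moved from -1.29 (SE 0.82) to 0.13 and TRIB3 from -0.67 (SE 0.84) to 0.32 when UL piglet 27 was left out.

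DDIT4, also called REDD1, restrains mTORC1 through the TSC complex and is induced by glucocorticoids and low oxygen as well as by ATF4 (chromosome 14 from 75117707 to 75119903, ENSSSCG00000031888). Its lowest, median and highest levels were 63.1, 146 and 285 CPM in control and 45.3, 64.4 and 89.6 CPM in UL. The ULU piglets 40 to 44 had 83.6, 125, 98.8, 82.7 and 74.4 CPM. All but 1 of the control piglets lay above every UL and ULU piglet, the exception being control piglet 24 at 63.1 CPM. DDIT4 was lowest in UL, with a log2(fold change) of -1.28 (SE 0.25) in UL vs control, -0.81 (SE 0.27) in ULU vs control and 0.47 (SE 0.26) in ULU vs UL. Without control piglets 23 and 26 the first and the second became -0.88 and -0.40.

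ASNS and PSAT1 are enzymes of amino acid synthesis. ASNS makes asparagine from aspartate (chromosome 9 from 77318213 to 77509020, ENSSSCG00000015340) and averaged 177 ± 53.5 CPM in control (SD, n = 6), 131 ± 48.1 in UL (n = 6) and 180 ± 64.8 in ULU (n = 5). The log2(fold change) of ASNS was -0.43 (SE 0.26) in UL vs control, and for ULU vs control it was 0.03 (SE 0.27), while 44.2% of the exon bases of its row lay inside the RefSeq span. PSAT1 is the aminotransferase of serine synthesis (chromosome 1 from 231142625 to 231172363, ENSSSCG00000005287). Its lowest, median and highest levels were 65.9, 197 and 354 CPM in control and 23.8, 68.6 and 168 CPM in UL. The ULU piglets 40 to 44 had 155, 103.96, 62.6, 8.13 and 125 CPM. The UL piglets fell into values of 23.8 to 30.6 CPM in 28, 29 and 30 and of 107 to 168 CPM in 27, 31 and 32, and ULU piglet 43 was below all others. The log2(fold change) of PSAT1 was -1.26 (SE 0.58) in UL vs control, and for ULU vs control it was -1.09 (SE 0.61). With 1 library left out, the first ranged from -1.61 (without UL piglet 27) to -0.99 (without control piglet 23). The second ranged from -1.37 (without ULU piglet 40) to -0.80 (without ULU piglet 43).

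**Figure D2:**
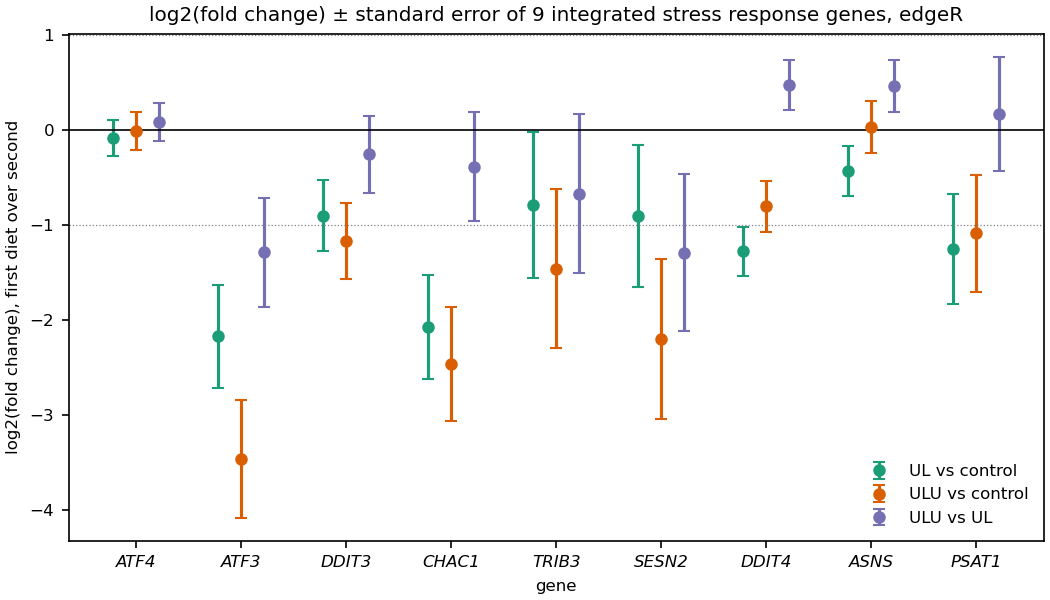
log2(fold change) of each gene (vertical axis) in the 3 comparisons, as edgeR estimate ± standard error, with dotted lines at 1 and -1. ATF3 and CHAC1 lie lowest in ULU vs control at -3.46 and -2.46, while ATF4 lies within 1 standard error of 0 in all 3 comparisons.

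Genes were called differentially expressed (DEGs) at a log2(fold change) of 1 or more in size and a p-value under 0.05, adjusted after Benjamini and Hochberg over all genes tested. In ULU vs control, edgeR called 2 of the 9 genes lower, ATF3 and CHAC1, where the share of all 14203 genes called lower was 0.282%. In UL vs control it called 0 of the 9, where the share of all genes called was 0.0%, and in ULU vs UL 0 of the 9 beside 0.0141% of all genes. An unadjusted p-value under 0.05 was found for 5 of the 9 in UL vs control, 5 in ULU vs control and 1 in ULU vs UL, beside 10.8%, 18.9% and 10.8% of all genes. DESeq2 on the 2 diets compared called 3 of the 9 in UL vs control (ATF3, CHAC1 and DDIT4), 3 in ULU vs control (ATF3, CHAC1 and SESN2) and 0 in ULU vs UL, beside 0.1%, 0.77% and 0.15% of the genes to which it gave an adjusted p-value. It gave none to DDIT3, nor to CHAC1, SESN2 and TRIB3 in ULU vs UL. These comparisons were used to choose the genes, so nothing is read from the counts. The call of ATF3 in ULU vs control was made under each of the 17 single libraries left out, and that of CHAC1 under 11 of them. CHAC1 was no longer called without control piglet 23 or 26 or without ULU piglet 40, 42, 43 or 44.

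With all libraries, the direction was shared more widely than the calls. In UL vs control, all 9 genes had a log2(fold change) under 0, as 50.5% of all genes did. Of the 9, 4 had one of -1 or less beside 0.943% of all genes. The direction in UL vs control rested in part on single control piglets. Without control piglets 23 and 26, SESN2 and TRIB3 were above 0, and without control piglet 21, ATF4 was at 0.04. The 9 genes were also selected on their levels and covariation, so these counts are not of 9 separate genes. In ULU vs control, 8 of the 9 were under 0 beside 53.0% of all genes, and 6 were at -1 or less beside 2.78%. In ULU vs UL, 5 of the 9 were under 0 beside 53.0% of all genes, and 2 were at -1 or less beside 1.2%. The median log2(fold change) over the 9 genes was -0.91, -1.17 and -0.26 in the 3 comparisons, and over all genes tested it was -0.03 or closer to 0. For 0 of the 9 genes were the libraries of the first diet of a comparison all below, or all above, those of the second. The first diet lay all below the second for 0.359% of all genes in UL vs control, 1.09% in ULU vs control and 0.662% in ULU vs UL.

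Some measures of the libraries moved with the diets, and their part in these differences was not tested. Mitochondrial genes took 14% to 15.9% of the counted reads in control, 8.64% to 14.8% in UL and 8.0% to 11.6% in ULU. The summed level of the 7 muscle markers in the table, among them ACTA1 and CKM, was 87221 to 140942 CPM in control, 112617 to 150991 in UL and 127683 to 238582 in ULU. Of the 6 muscle markers tested, TNNT1 rose as a DEG in ULU vs control (log2(fold change) 1.30, SE 0.27, edgeR adjusted p = 0.0178), and MYH2 and TNNT3 passed the adjusted p-value alone. Summed leukocyte markers ranged from 21.2 to 112 CPM in control, 31.5 to 74.3 in UL and 14.8 to 106 in ULU, and summed adipocyte markers from 121 to 640, 96.8 to 238 and 77.7 to 228 CPM. Summed endothelial markers were 92.1 to 150 CPM in control, 82.1 to 230 in UL and 96.2 to 163 in ULU, and summed fibroblast markers were 2640 to 5724, 3310 to 6458 and 2248 to 5724 CPM. Erythroid markers summed to between 19.8 and 89.8 CPM and Schwann cell markers to between 4.77 and 27.5 CPM over all libraries. Every marker in the table had reads in at least 1 of the 17 libraries. In bulk muscle, fewer cells of a type and less RNA per cell cannot be told apart.

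Per length, the 9 genes ran over a wide range. The mean level over the 17 libraries, in CPM per kb of exon, was 113 ± 26.9 (SD) for ATF4, 62.2 ± 35 for DDIT4, 52.1 ± 38.8 for PSAT1 and 43.6 ± 15.3 for ASNS. The last 3 did not differ beyond their spread, and the highest DDIT4 library at 164 CPM per kb was level with the highest ATF4 library at 163. CHAC1 followed at 16 ± 20.8 and ATF3 at 7.60 ± 9.36 CPM per kb, which overlapped with each other, and then SESN2 at 3.28 ± 4.07 and TRIB3 at 0.620 ± 0.654. DDIT3 cannot be placed in this order, since most of its exon bases could not be counted. For ATF4 and ASNS, 24.0% and 44.2% of the exon bases of the row lay inside the RefSeq span, so their places are less certain.

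Piglets of the same diet differed widely in most of these genes. The SD of log2 CPM within diets was 1.75 for TRIB3, above that of 99.5% of all genes tested, 1.49 for SESN2 (99.1%), 1.32 for PSAT1 (98.7%), 1.12 for ATF3 (96.8%) and 1.04 for CHAC1 (95.8%). It was 0.54 for DDIT3, 0.52 for ASNS and 0.51 for DDIT4, and 0.36 for ATF4, beside a median of 0.35 over all genes. Low counts add to this spread for TRIB3 and DDIT3, which had at most 185 and 39 reads in a library.

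**Figure D3:**
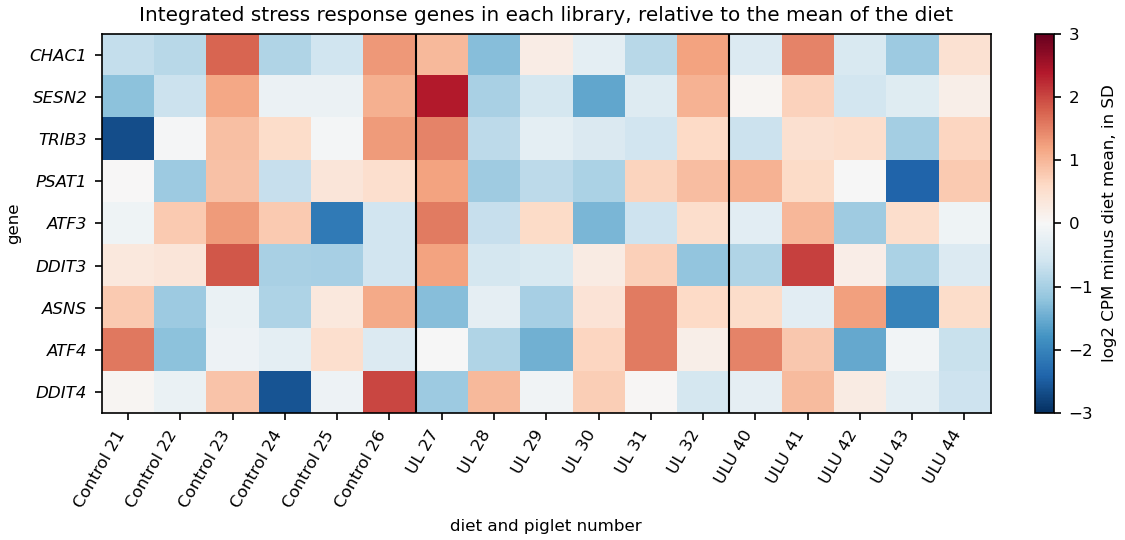
Deviation of each gene (rows) in each piglet (columns, black lines between the diets) from the mean of its diet in log2 CPM, in units of the SD within diets, with red above and blue below the mean and a colour scale from -3 to 3 SD. ULU 41 is above the mean of its diet for 8 genes, control 23 and UL 32 for 7, and control 26 and UL 27 for 6, while UL 28 and ULU 43 are above it for 1.

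Single piglets stood high for several of the genes. Control piglet 23 had the highest level of its diet for 5 of the 9 genes and control piglet 26 for 3. UL piglet 27 was the highest of its diet for 5, and was also the lowest of its diet for DDIT4 and ASNS. Among the ULU piglets, 41 was the highest for 5 genes and 43 the lowest for 5, the latter with 8.13 CPM of PSAT1 and 85.4 CPM of ASNS. The library of ULU piglet 43 also had the most counted reads (26546810) and the lowest TMM factor (0.765) of the study. Their part in its low values was not tested.

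To describe which genes rose and fell together between piglets, the mean of each diet was subtracted from the log2 CPM values and Pearson's r was taken over the 17 libraries. Over the 36 pairs of the 9 genes the median r was 0.29, with a range of -0.61 to 0.77, beside a median of -0.0022 over all pairs of genes tested. An r of 0.5 or more was found for 7 pairs, or 19.4%, beside 4.69% of all pairs. All points share their libraries and depth, and r between the 9 genes and the log2 of the counted reads ranged from -0.58 for DDIT3 to -0.08 for ATF4. With the TMM factor of the library, r was -0.51 for ATF4, 0.52 for TRIB3 and between 0.10 and 0.22 for the other 7 genes. Without control piglets 23 and 26 and UL piglet 27 the median over the 36 pairs was 0.13.

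CHAC1, SESN2, TRIB3 and PSAT1 formed the core of this covariation. The r values were 0.77 for CHAC1 with SESN2 (Spearman's rho 0.68), 0.76 for SESN2 with TRIB3 (rho 0.76) and 0.66 for CHAC1 with TRIB3 (rho 0.68). With PSAT1, r was 0.64 for SESN2 (rho 0.75), 0.63 for CHAC1 (rho 0.66) and 0.44 for TRIB3 (rho 0.51). Leaving out the 2 piglets farthest from the median of the first gene of each pair gave 0.75, 0.76, 0.65, 0.57, 0.61 and 0.55. For CHAC1 with SESN2, r was 0.90 in the 6 control piglets, 0.77 in the 6 UL piglets and 0.89 in the 5 ULU piglets. In the same order, r was 0.85, 0.94 and 0.32 for SESN2 with TRIB3, and 0.56, 0.87 and 0.69 for CHAC1 with TRIB3. It was 0.64, 0.86 and 0.54 for SESN2 with PSAT1, and 0.78, 0.62 and 0.61 for CHAC1 with PSAT1. TRIB3 with PSAT1, under 0.5 over all libraries, had 0.20, 0.76 and 0.59. The differences between the diets were not tested. ATF3 with SESN2 had r = 0.55 (rho 0.54), with 0.13, 0.90 and 0.68 in the control, UL and ULU piglets. ASNS with PSAT1 had r = 0.54 (rho 0.34), with 0.69, 0.14 and 0.81 in the 3 diets, and between 0.33 and 0.72 with 1 library left out.

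**Figure D4:**
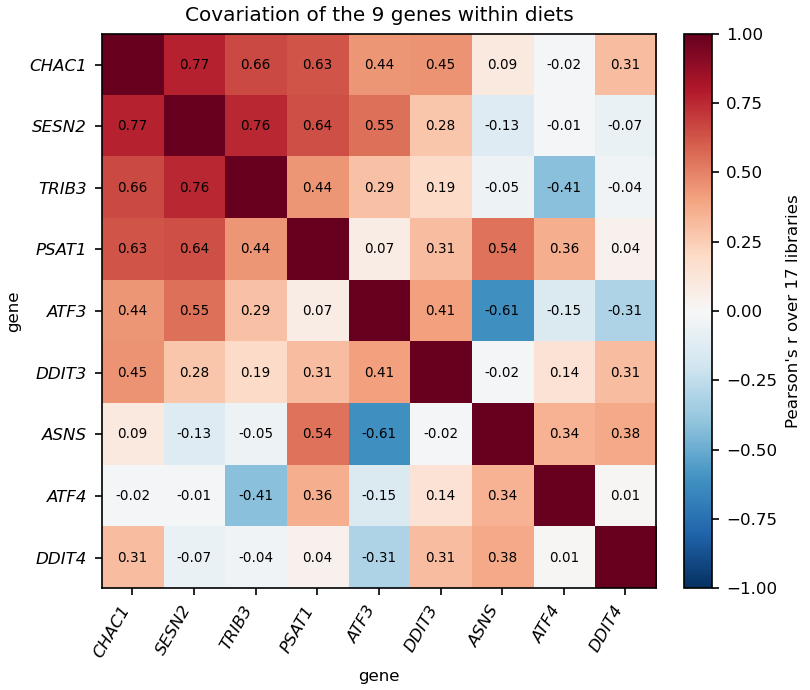
Pearson's r between the log2 CPM of each pair of genes over the 17 libraries, after subtraction of the diet means, with red for positive and blue for negative values. The block of CHAC1, SESN2, TRIB3 and PSAT1 at the upper left holds values of 0.44 to 0.77, and ATF3 with ASNS is the lowest at -0.61.

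The row taken for ATF4, with 24.0% of its exon bases inside the RefSeq span of ATF4, was not part of that core. Its highest r with any of the other 8 genes was 0.36, with PSAT1, and its r was -0.02 with CHAC1, -0.01 with SESN2 and -0.41 with TRIB3. The last of these was -0.10 without the 2 farthest piglets, and these 2 genes had r of opposite sign with the TMM factor. ATF3 and ASNS ran opposite to each other, with r = -0.61 (rho -0.59), -0.63 without the 2 farthest piglets, and -0.58, -0.62 and -0.74 in the control, UL and ULU piglets.

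DDIT4 had r values of -0.84 or lower with 5 of the other genes in the UL piglets, beside -0.27 with DDIT3, -0.07 with ATF4 and 0.30 with ASNS. In the 6 UL piglets its r was -0.93 with SESN2, -0.90 with ATF3, -0.90 with TRIB3, -0.86 with PSAT1 and -0.84 with CHAC1. In the 6 control piglets these values were 0.51, -0.20, 0.17, 0.65 and 0.73, and in the 5 ULU piglets they were 0.43, 0.35, 0.34, 0.14 and 0.59. The difference between the diets was not tested, and over all 17 libraries the same 5 values lay between -0.31 and 0.31.

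Few of the other genes of the pathway were called. Of 78 genes in 7 lists, 76 were in the table and 70 were tested. In UL vs control, 0 of the 70 were called by edgeR, 56 had a log2(fold change) under 0 and their median was -0.20, where 0.0% of all genes were called and 50.5% were under 0. In ULU vs control, CEBPD alone was called, 50 were under 0 and the median was -0.19, where 0.415% of all genes were called and 53.0% were under 0. In ULU vs UL, 0 of the 70 were called, 28 were under 0 and the median was 0.08, where 0.0141% of all genes were called and 53.0% were under 0.

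The kinases, regulators and phosphatase subunits that set the phosphorylation of eIF2 (9 genes, 0 called) had a median log2(fold change) of -0.21 in UL vs control, against -0.30 in ULU vs control. PPP1R15A, the inducible subunit that dephosphorylates eIF2, was at 7.89 ± 2.25 CPM in control (SD, n = 6), 6.81 ± 2.18 in UL (n = 6) and 5.2 ± 1.14 in ULU (n = 5), with an edgeR adjusted p of 0.182 in ULU vs control. DNAJC3, an inhibitor of these kinases, had a log2(fold change) of -0.45 (SE 0.16, edgeR adjusted p = 0.120) in ULU vs control. The 8 subunits of eIF2 and of its exchange factor eIF2B lay between -0.26 for EIF2B5 and 0.24 for EIF2B3 in ULU vs control.

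Among the 8 tested basic leucine zipper partners of ATF4, CEBPD fell in ULU vs control, from 6.5 ± 3.25 CPM (SD, n = 6) to 2.18 ± 0.981 (n = 5). CEBPD is a factor that responds to glucocorticoids and cytokines, and its log2(fold change) was -1.57 (SE 0.41, edgeR adjusted p = 0.0458). This call held in 5 of the 17 fits with 1 library left out, where the adjusted p reached 0.114 (without ULU piglet 43). NFE2L1, which controls proteasome genes, was at 41.4 ± 4.69 CPM in control and 56.6 ± 6.22 in ULU (log2(fold change) 0.45, SE 0.11, edgeR adjusted p = 0.0337), below the fold threshold. By the adjusted p-value alone 2.98% of all genes passed in ULU vs control. For NFE2L1 the adjusted p was under 0.05 in 10 of the 17 fits. ATF5, a close relative of ATF4 that responds to the same signals, had a log2(fold change) of -0.79 (SE 0.54, edgeR adjusted p = 0.458).

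The amino acid transporters had the lowest median of the 7 lists in ULU vs control, at -0.74, and all 8 tested were under 0 in each of the 3 comparisons, though 0 were called. SLC7A11, the cystine importer, had a log2(fold change) of -1.29 (SE 0.72, edgeR adjusted p = 0.346) in ULU vs control, and SLC1A4, a carrier of alanine, serine and cysteine, of -0.93 (SE 0.42, edgeR adjusted p = 0.242). The 13 genes of the list of tRNA synthetases, which attach amino acids to tRNA (with the tRNA exporter XPOT counted among them), had a median of -0.36 in UL vs control, against -0.19 in ULU vs control. IARS1 was at -0.39 (SE 0.34, edgeR adjusted p = 0.567) and TARS1 at -0.33 (SE 0.23, edgeR adjusted p = 0.468) in ULU vs control.

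The enzymes of amino acid synthesis and one-carbon metabolism (11 tested, 0 called) had a median of -0.27 in UL vs control, against -0.15 in ULU vs control. PHGDH, the first enzyme of serine synthesis, was at -0.44 (SE 0.46, edgeR adjusted p = 0.650) and GOT1, the cytosolic aspartate aminotransferase, at 0.43 (SE 0.16, edgeR adjusted p = 0.158) in ULU vs control. In the last list, of secreted factors and other targets (13 tested, 0 called), FGF21 averaged 9.59 ± 8.46 CPM in control (SD, n = 6), 4.54 ± 7.69 in UL (n = 6) and 2.54 ± 2.07 in ULU (n = 5). The median of FGF21 was 5.27 CPM in control, 1.17 in UL and 1.60 in ULU, and the highest UL piglet had 20.2 CPM. For ULU vs control the log2(fold change) of FGF21 was -1.94 (SE 0.84, edgeR adjusted p = 0.214), and that of STC2, a secreted glycoprotein, was -0.94 (SE 0.51, edgeR adjusted p = 0.333).

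Several groups of pathway genes moved with the mean of the 9 genes between piglets of the same diet, and most closely with SESN2, PSAT1, CHAC1 and TRIB3. The deviations of the 9 genes from their diet means, each divided by its SD, were averaged in each library, and all other genes were compared with this mean by Pearson's r over the 17 libraries. An r of 0.5 or more was found for 2.32% of the 14194 other genes tested. It was found for 12 of the 13 tRNA synthetase genes (median r 0.69), for 7 of the 8 amino acid transporters (0.64) and for 9 of the 11 enzymes of amino acid synthesis (0.63). It was found for 0 of the 8 subunits of eIF2 and eIF2B, 2 of the 9 genes of eIF2 phosphorylation, 2 of the 8 basic leucine zipper partners and 1 of the 13 other targets, which was FGF21. Without the 2 libraries farthest from the median of the mean, control 23 and ULU 41, the counts for the first 3 lists were 12, 7 and 8. Within control, UL and ULU piglets the median r of the tRNA synthetase genes was 0.68, 0.87 and 0.47. Cell type markers also moved with this mean within single diets, and their part was not tested. In the same order, the median r was -0.47, 0.89 and -0.13 for the 5 adipocyte markers, 0.25, -0.65 and 0.53 for the 5 fibroblast markers, 0.22, -0.11 and 0.73 for the 4 endothelial markers and 0.43, -0.32 and 0.33 for the 5 leukocyte markers. It was 0.59, 0.53 and 0.44 for the 3 Schwann cell markers and -0.10, -0.12 and -0.25 for the 6 muscle markers.

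**Figure D5:**
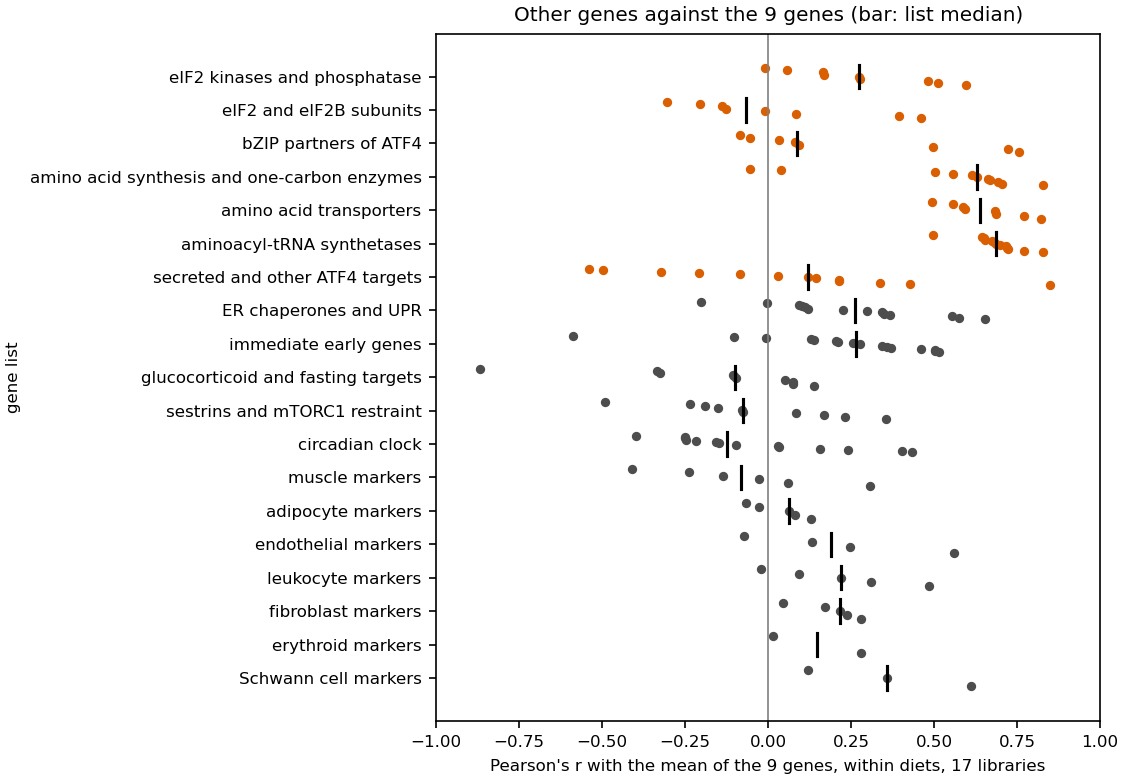
Pearson's r of each gene of 19 lists (rows) with the mean deviation of the 9 genes over the 17 libraries, with black bars at the median of the list, orange for the 7 lists of the pathway and grey for other lists. The tRNA synthetases, amino acid transporters and enzymes of amino acid synthesis have medians of 0.63 to 0.69, and the lists of cell type markers have medians of -0.08 to 0.36.

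The 9 genes were not alike in this. SESN2, TRIB3 and PSAT1 each had an r of 0.5 or more with 13 of the 13 tRNA synthetase genes and CHAC1 with 12, while ATF4, ATF3, DDIT4, ASNS and DDIT3 each had such an r with 0. The median r with the tRNA synthetase genes was 0.80 for SESN2, 0.78 for PSAT1, 0.66 for CHAC1, 0.66 for TRIB3, 0.20 for ATF3, 0.20 for ASNS, 0.13 for ATF4, 0.08 for DDIT3 and -0.04 for DDIT4. Without control piglets 23 and 26 and UL piglet 27 the counts were 12 of 13 for PSAT1, 11 for SESN2, 6 for CHAC1 and 4 for TRIB3 and for ASNS. PSAT1 had an r of 0.5 or more with 9 of the 11 enzymes of amino acid synthesis, CHAC1 with 7, SESN2 with 6, and TRIB3 and ASNS with 4.

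Of the 11790 named genes outside the 9, FGF21 was the most like their mean, with r = 0.85 (rho 0.79), and r was 0.92, 0.78 and 0.93 in control, UL and ULU. It was followed by ALDH1L2, a mitochondrial enzyme of folate metabolism (0.83), TARS1, which charges tRNA with threonine (0.83), SLC7A11 (0.82) and FOXS1 (0.79). GARS1, which charges tRNA with glycine (0.77), SLC1A4 (0.77), IRGQ (0.77), ZNF341 (0.76) and the glutamine carrier SLC38A1 (0.76) completed the 10 highest. The lowest r was that of FOXO3, a transcription factor of the fasting response in muscle, at -0.87 (rho -0.86), with -0.73, -0.97 and -0.94 in the diets taken singly. HEXIM1, an inhibitor of transcription elongation (-0.77), and the choline transporter SLC44A2 (-0.77) were next. FOXO3 itself differed little between the diets, with a log2(fold change) of -0.17 in ULU vs control.

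The closest single genes differed from one to the next. SESN2 was most like the tRNA exporter XPOT (r = 0.92), PSAT1 most like PSPH (r = 0.92), which catalyses the next step of serine synthesis, and CHAC1 most like FGF21 (r = 0.82). TRIB3 was most like HID1 (r = 0.88), ATF3 most like the splicing factor SRSF10 (r = 0.85) and ATF4 most like MYOZ3, a protein of the muscle Z-disc (r = 0.87). DDIT4 was most like CYB5R4 (r = 0.82), ASNS most like FUT1 (r = 0.81) and DDIT3 most like TMEM199 (r = 0.77).

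Lists of neighbouring responses were read in the same way. Of 14 tested chaperones and factors of the unfolded protein response in the endoplasmic reticulum, 0 were called and XBP1 passed the adjusted p-value alone in ULU vs control (log2(fold change) -0.72, SE 0.16, edgeR adjusted p = 0.0222). Of 16 immediate early genes, which respond within minutes to a stimulus, NR4A3 fell in ULU vs control (-2.58, SE 0.60, edgeR adjusted p = 0.0295). Of 10 targets of glucocorticoids and fasting, PDK4 fell (-1.67, SE 0.40, edgeR adjusted p = 0.0336) and FOXO1 passed the adjusted p-value alone (-0.61, SE 0.16, edgeR adjusted p = 0.0414). Of 10 other sestrins and regulators of mTORC1, 0 were called. Of 14 clock genes, PER1 (-1.70, SE 0.28), PER2 (-1.89, SE 0.20) and PER3 (-1.36, SE 0.30) fell in ULU vs control with edgeR adjusted p-values of 0.00502, 0.000229 and 0.0218, PER2 also fell in ULU vs UL (-1.48, SE 0.20, edgeR adjusted p = 0.00858), and CLOCK and CRY2 passed the adjusted p-value alone in ULU vs control. Of all genes, 0.415% were called in ULU vs control. All 10 glucocorticoid and fasting targets were under 0 in UL vs control (median -0.37) and in ULU vs control (median -0.55). The shares of all genes under 0 were 50.5% and 53.0%. In ULU vs control the median was -0.13 for the chaperones, -0.42 for the immediate early genes, 0.11 for the sestrin list and -0.30 for the clock genes. Between piglets of a diet, an r of 0.5 or more with the mean of the 9 genes was found for 3 of the 14 chaperones, 3 of the 16 immediate early genes, 0 of the 10 glucocorticoid and fasting targets and 0 of the 14 clock genes.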

How the data were processed

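Muscle RNA of 17 piglets was read as 75 nt single ends. After trimming with fastp and alignment with HISAT2, the authors counted reads per gene with featureCounts and deposited these raw counts. The file header gives featureCounts 2.0.1 with Ensembl annotation 104 of Sscrofa11.1 and no option for strand or for overlapping genes. A deposited signal column holds the authors' mean of the counts and was used only as a check. The 9 genes and the gene lists were chosen with earlier results of these data known. Genes were named by Ensembl ID (15029) or by at least 10% of exon bases inside a RefSeq gene of the same assembly (5454), and 11424 had no name.

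Counts were analysed with edgeR 4.0.16 in R 4.3.3: filterByExpr, TMM and the quasi-likelihood test in 1 model of all 17 libraries, with Benjamini-Hochberg adjustment over 14203 genes. Standard errors were obtained from the log2(fold change) and its F statistic, and a prior count of 2 was added for log2 CPM. DESeq2 1.42.0, size factors other than TMM, no filter, fits on 2 diets and each library left out were alternatives. The smallest chi-square per gene between libraries of a diet was 20.7, so none was a repeat of another. The fits were tested on simulated data with 200 changed genes. Besides the 9 genes, those named are list genes with an adjusted p-value under 0.05, the 2 genes of each pathway list with the largest absolute log2(fold change) in ULU vs control, and the genes with the highest (10) or lowest (3) r to the mean of the 9 or the highest r to each. A depth of 16137365 to 26546810 counted reads puts 3 reads at 0.130 to 0.195 CPM.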

Additional observations from a re-analysis of the deposited data

Results flagged for a closer look

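The highest and the lowest piglet of each gene in each diet were compared with the rest of the diet by Dixon's ratio, which gave 27 groups. The ratio was taken on CPM and not on log2 CPM. For normally distributed values, chance alone passes the 95% critical value in about 1 of 20 groups. CPM values are skewed towards high levels, so that this rate cannot be assumed here. In 4 groups a piglet stood apart on the CPM scale, each time at the high end, and whether it would on the log2 scale was not tested. UL piglet 27 had 50.7 CPM of SESN2, where the other UL piglets had 1.04 to 14 CPM. The same piglet had 7.36 CPM of TRIB3, where the others had 0.462 to 2.66 CPM. Control piglet 23 had 2.36 CPM of DDIT3, where the other control piglets had 0.811 to 1.37 CPM. ULU piglet 41 had 1.17 CPM of DDIT3, where the others had 0.345 to 0.563 CPM. DDIT3 rested on at most 39 reads in a library.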

How the results depend on the processing

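No paired analysis was possible because each diet has its own piglet numbers in the labels. Of the 9 genes, edgeR called 0 in UL vs control, and 2 in the comparison of ULU with control. DESeq2 called 3 in UL vs control, on the 2 diets and on all libraries. The edgeR fit on 2 diets and the edgeR fit without control piglets 23 and 26 each called 1 in ULU vs control. With 1 library left out, 0 to 1, 1 to 2 and 0 were called in UL against control, ULU against control and ULU against UL. Of the 70 pathway genes, 1 was called in ULU vs control, 0 without the filter or on 2 diets, 2 by adjusted p alone and 0 to 1 with 1 library left out. Of all genes, 0, 59 and 2 were called in the 3 comparisons. DESeq2 called 10 (2 diets) and 12 (all libraries) in UL vs control, and 97 (all libraries) for ULU against control. In ULU vs control the edgeR fit on 2 diets called 27 and the adjusted p alone 423. In ULU vs UL, 1 was called by edgeR on 2 diets, 9 by DESeq2 on 2 diets and 5 by adjusted p alone. With 1 library left out the ranges were 0 to 2, 30 (without control piglet 22) to 121 (without control piglet 25) and 1 to 3. The cause of these differences was not tested. The median r over the 36 pairs was 0.29, 0.27 with a prior count of 1, 0.28 with other size factors, 0.19 as Spearman's rho and 0.19 to 0.31 with 1 library left out. Depth limits TRIB3 (at most 185 reads) and DDIT3 (at most 39 reads) most.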
